A study of Mus musculus with 4 samples.

Results

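The protein genes of the core spliceosomal snRNPs were followed in ribosome footprints of mouse embryonic stem cells. All genes whose symbol begins with Snrp, Sf3a, Sf3b or Prpf were taken, without symbols marked -ps, which gave 34 of the 25170 genes in the table: 12 Snrp, 3 Sf3a, 6 Sf3b and 13 Prpf genes. The cells were of the wild-type line E14, labelled as inner cell mass, and were kept on gelatin in medium with fetal bovine serum and LIF. In 2 libraries the cells had been kept in 1 µM PD for 3 passages, and in the other 2 libraries they had been kept in the solvent DMSO for 3 passages. The labels name the compound only as PD, and the comparison addresses the part of the kinase Mek in regulation after transcription. Ribosome profiling sequences the RNA pieces that ribosomes shield from nuclease, so a gene's value follows both the amount of its mRNA and the density of ribosomes on it. Values are FPKM, fragments per kilobase of transcript and scaled to the mapped fragments of the library, so levels of different genes are given per length.

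The spliceosome removes introns and is assembled from small nuclear ribonucleoproteins, each an RNA (U1, U2, U4, U5 or U6) with its proteins. The Sm proteins B, D1, D2, D3, E, F and G close into a ring on the U1, U2, U4 and U5 RNAs. The U1 and U2 particles recognise the 5′ splice site and the branch point. SF3A and SF3B complete the U2 particle, and the U4/U6.U5 tri-snRNP then brings in some of the PRPF proteins. Embryonic stem cells divide fast and rely on high splicing capacity.

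Depth differed between the treatments. Relative to DMSO replicate 1, depth read from the FPKM steps was 0.464 in PD replicate 1 and 0.201 in PD replicate 2, against 1.42 in DMSO replicate 2. Genes of miRNAs held 97.3% and 96.6% of the summed FPKM in the PD libraries and 97.7% and 95.1% in the DMSO libraries. As FPKM is given per length and miRNA genes are short, these are not shares of reads. All 10 embryonic stem cell markers had a mean of at least 1 FPKM, from 1.92 FPKM for Klf4 to 1918 FPKM for Dppa5a. Of 9 fibroblast and feeder markers, Thy1 alone reached 1 FPKM and 3 were listed at 0 in every library. Their summed level was 2.67 and 3.44 FPKM in the PD libraries, against 1.95 and 2.33 FPKM in the DMSO libraries. The part of depth and of these markers in the results was not tested.

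None of the snRNP protein genes passed the test of PD against DMSO across all genes. The test took in genes that averaged 1 FPKM or more, and 33 of the 34 members met this limit. The lowest member inside this limit was Prpf40b, with a mean of 2.03 FPKM. Snrpg, the gene of the Sm G protein, lay outside it and was listed at 0 in all 4 libraries, although dividing cells need this protein. limma on log2(FPKM + 1) with Benjamini-Hochberg adjustment called 0 of the 33 members, and it called 0.257% of all 9741 genes tested, 0.0308% higher and 0.226% lower in PD. All members are protein-coding, and in the same fit 0 of the 8897 protein-coding genes tested passed, so the members' count of 0 is that of the background. At an unadjusted p under 0.05 there were 4 of the 33 members, Snrpd2, Snrpn, Prpf38b and Prpf31, all lower in PD. Over all genes tested the share at such a p was 5.76%, and it held 458 of the 8897 protein-coding genes. The share was thus larger among the members, and this was not tested. voom on recovered reads, which held 19 members, also called 0 and left 1 at an unadjusted p under 0.05. The smallest adjusted p of a member was 0.641, for Snrpd2 (limma).

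The members were nearly balanced in direction. Both PD libraries lay above both DMSO libraries for 5 members, where the share over all genes tested was 17.5%, and below both for 7 members, where it was 18.3%. The groups overlapped for the other 21 members. These 12 members make 36.4% of those tested, beside 35.8% of all genes, so the share is that of the background. The median log2 difference, PD minus DMSO, was 0.02 over the members and -0.02 over all genes tested. The median size of the difference was 0.21 on the log2 scale for members and 0.32 for all genes. Between the replicates, the median size of the difference among members was 0.30 for the PD pair and 0.26 for the DMSO pair. Over all genes tested it was 0.45 and 0.37. Members thus also differed less between replicates, so their smaller 0.21 cannot be read as a weaker response to PD. The replicate values compare single libraries, whereas 0.21 and 0.32 compare means of 2 libraries, so their sizes are not directly comparable. In bulk libraries, fewer cells that use a gene and less RNA per cell cannot be told apart.

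**Figure D1:**
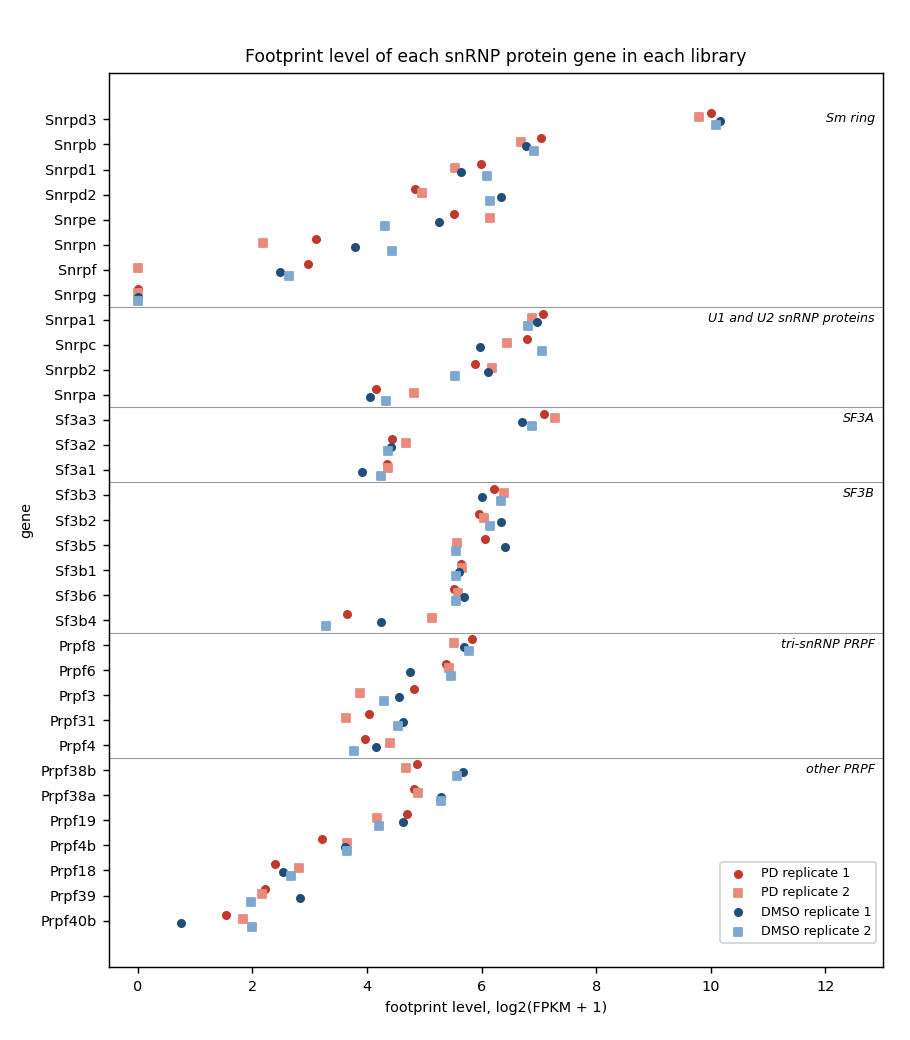
Footprint level of the members named here in each library, as log2(FPKM + 1), grouped by role, with PD in red, DMSO in blue, circles for replicate 1 and squares for replicate 2. Snrpd3 stands far above the other members and Snrpg is at 0 in all libraries.

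The Sm ring held both the widest levels and the largest differences of the set. Its proteins are present in equal number in a ring, whereas the footprint levels of their genes ran from 0 for Snrpg to a mean of 1035 FPKM for Snrpd3. Snrpd3, which encodes D3, had 1021 and 884 FPKM in the PD libraries and 1144 and 1092 FPKM in the DMSO libraries. It ranked above 99.7% of the protein-coding genes tested, and its level was 7.82 and 8.71 times that of Snrpb in the PD libraries and 10.6 and 9.14 times in the DMSO libraries. The table's Snrpd3 locus also holds 1 pseudogene in RefSeq, and Sm genes have processed copies in the mouse genome, so how reads were shared with copies bears on these levels and was not tested. Snrpb, which encodes B, had 131 and 101 FPKM in the PD libraries and 108 and 120 FPKM in the DMSO libraries. Snrpd1, which encodes D1, had 62.3 and 45.6 FPKM in the PD libraries and 48.9 and 67.2 FPKM in the DMSO libraries. Both overlapped between the groups.

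Snrpd2 and Snrpe, 2 genes of the same ring, lay on opposite sides. Snrpd2, which encodes D2 (mm10, chromosome 7, 19149838 to 19152726), had 27.6 and 29.9 FPKM in the PD libraries, against 79.9 and 69.7 FPKM in the DMSO libraries. Both PD libraries lay far below both DMSO libraries, with little spread within a group. The means were 28.8 ± 1.64 FPKM in PD and 74.8 ± 7.20 FPKM in DMSO (SD, n = 2 each). The log2 difference was -1.35 with an SE of 0.24 and a 95% interval from -2.00 to -0.69 (limma adjusted p = 0.641). Snrpd2 rested on 17 and 8 recovered reads in PD and on 106 and 131 in DMSO. Scaled by depth, the pooled reads gave a PD to DMSO ratio of 0.383, with an exact Clopper-Pearson 95% interval from 0.243 to 0.580 that covers counting error only. Snrpe, which encodes E (chromosome 1, 133603871 to 133610280), had 44.9 and 70.1 FPKM in the PD libraries, against 37.1 and 18.9 FPKM in the DMSO libraries. The groups did not overlap, but PD replicate 1 and DMSO replicate 1 were close. Its difference on the log2 scale was 1.05 (SE 0.45, limma adjusted p = 0.837). It was 0.58 without DMSO replicate 2, 0.74 without PD replicate 2, 1.37 without PD replicate 1 and 1.52 without DMSO replicate 1. Its reads were 28 and 19 in PD and 50 and 36 in DMSO, a depth-scaled ratio of 1.98 with a counting interval from 1.36 to 2.86.

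Snrpn encodes SmN, a close relative of B that takes its place in neurons, from an imprinted gene read on the paternal copy. It had 7.64 and 3.54 FPKM in the PD libraries, against 12.8 and 20.7 FPKM in the DMSO libraries, with no overlap. The log2 difference was -1.47 with an SE of 0.45 and a 95% interval from -2.68 to -0.25 (limma adjusted p = 0.806). The table gives Snrpn a locus on chromosome 7 from 59228750 to 60450177, whereas RefSeq has the gene from 59982495. 217 other RefSeq genes lie in the table's locus, among them Ube3a and the snoRNA host Snhg14, and no whole reads could be recovered for it. Its value may therefore hold reads of neighbours, which was not tested. For Snrpd3 the PD libraries also lay below without overlap, and the difference was -0.23 on the log2 scale (SE 0.28, limma adjusted p = 0.894).

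Snrpf, which encodes F, was thinly covered. It had 6.85 and 0 FPKM in the PD libraries and 4.59 and 5.24 FPKM in the DMSO libraries, from 9 and 0 recovered reads in PD and 13 and 21 in DMSO. The 0 fell in PD replicate 2, the shallowest library, and the depth-scaled ratio of its reads was 0.961 with a counting interval from 0.406 to 2.05. The fitted difference was -1.08 on the log2 scale with an SE of 1.05 and a 95% interval from -3.88 to 1.73, which spans changes in either direction. The table's locus for Snrpf runs from 93540632 to 93605245 on chromosome 10, beyond the RefSeq span from 93583029 to 93589658, and also holds Ccdc38.

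The 4 members that encode U1 or U2 proteins outside SF3A and SF3B, Snrpa, Snrpc, Snrpa1 and Snrpb2, had groups that overlapped. Snrpa and Snrpc encode the U1 proteins A and C, and Snrpa1 and Snrpb2 the U2 proteins A′ and B′′. Snrpa1 had the highest level, with 134 and 116 FPKM in the PD libraries and 123 and 111 FPKM in the DMSO libraries. Snrpc had 110 and 86.4 FPKM in the PD libraries and 61.9 and 131 FPKM in the DMSO libraries, so its DMSO replicates lay on either side of both PD libraries. Snrpb2 had 58.4 and 72.0 FPKM in the PD libraries and 68.5 and 45.5 FPKM in the DMSO libraries. Snrpa was lower, at 16.9 and 27.2 FPKM in PD and at 15.7 and 19.1 FPKM in DMSO. The table's locus for Snrpa runs to 27205386, beyond the RefSeq end at 27196271, and also holds BC024978. The 4 log2 differences ran from 0.09 to 0.29, with SEs from 0.25 for Snrpa1 to 0.45 for Snrpc, and all 4 overlapped.

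All 3 subunits of SF3A, which joins the U2 particle and holds it at the branch point, lay higher in both PD libraries than in both DMSO libraries, and none of the 3 passed the test. Over all genes tested, 17.5% lay higher in this way, and SF3A was singled out after its values were seen. Sf3a3 (chromosome 4, 124714861 to 124732422) had 135 and 154 FPKM in the PD libraries, against 104 and 117 FPKM in the DMSO libraries. Sf3a1 (chromosome 11, 4160354 to 4182541) had 19.3 and 19.6 FPKM in the PD libraries, against 13.98 and 18.1 FPKM in the DMSO libraries. Sf3a2 (chromosome 10, 80798735 to 80804922) had 20.6 and 24.8 FPKM in the PD libraries, against 20.4 and 19.6 FPKM in the DMSO libraries. The gap between the nearest PD and DMSO libraries was small for Sf3a2 and Sf3a1. The log2 differences were 0.38 for Sf3a3, 0.27 for Sf3a1 and 0.17 for Sf3a2, with SEs of 0.25, 0.26 and 0.25 (limma adjusted p = 0.837, 0.866 and 0.922). Single libraries moved these values: Sf3a1 had 0.10 without DMSO replicate 1 and 0.45 without DMSO replicate 2, and Sf3a2 had 0.04 without PD replicate 2 and 0.30 without PD replicate 1. With voom on recovered reads, 1 of the 3 had no overlap. The subunits are present once each in SF3A, yet the level of Sf3a3 was 6.98 and 7.88 times that of Sf3a1 in the PD libraries and 7.42 and 6.5 times in the DMSO libraries. The Sf3a3 locus in the table holds a RefSeq pseudogene, Gm12917, and a miRNA gene, Mir697.

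The promoters of the SF3A genes were read because these genes lay on 1 side together. ETS factors, several of which ERK is known to phosphorylate, bind a GGAA core, and the motif searched was CCGGAAG or its reverse complement CTTCCGG. The window was 300 bases, 250 before the annotated start and 50 after it, from RefSeq with the build GRCm38.p6. 28 of the 34 members had a window in the RefSeq table used here. The motif stood in a window of 14 members, or 50%, beside 12.9% of the 17492 protein-coding genes with a window. These 17492 genes were not limited by footprint level, whereas 33 of the 34 members averaged at least 1 FPKM. The share among genes at like levels was not counted, so 50% cannot be read as particular to the members. By direction, it was found in 4 of the 5 members higher in both PD libraries (Sf3a1, Sf3a2, Sf3a3 and Snrpe), in 1 of the 7 lower ones (Sf3b2) and in 8 of the 15 overlapping ones with a window. The remaining match was Snrpg, which was not tested. The motif was chosen with the differences known, and the SF3A genes that prompted the reading are counted among the higher ones. The split by direction therefore cannot serve as a test, and no test was made of these counts. A match is a description of the letters and not a bound site.

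The 140 bases before the start are shown for the SF3A genes, and beside them for 3 members that lay lower in both PD libraries. These are Sf3b2, the 1 lower member with the motif, and Snrpd2 and Prpf38b, which lack this exact string. Capitals mark the motif, which begins at position -7 in Sf3a1, -76 in Sf3a2, -11 in Sf3b2 and, in the reverse orientation, -90 in Sf3a3, where -1 is the base before the start. The stretches are chr11:4160214-4160353, chr10:80798595-80798734, chr4:124714721-124714860 and chr7:19149698-19149837 on the plus strand, and chr19:5295458-5295597 and chr3:108911730-108911869 on the minus strand, each written 5′ to 3′ on the gene's strand. The GGAA core alone, counted on both strands, occurs in all 6 stretches: 2 times each in Sf3a1, Sf3a2 and Snrpd2, 3 times in Prpf38b and 4 times each in Sf3a3 and Sf3b2. Both cores of Snrpd2, and the core of Sf3a2 outside the motif, stand in acggaag, and Prpf38b holds cttccgc. These differ from the motif or its reverse complement only in the outer base, so the split into genes with and without it depends on the string chosen.
Sf3a1: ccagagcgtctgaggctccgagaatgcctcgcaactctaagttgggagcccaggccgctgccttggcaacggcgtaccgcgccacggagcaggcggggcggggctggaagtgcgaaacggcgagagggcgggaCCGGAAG
Sf3a2: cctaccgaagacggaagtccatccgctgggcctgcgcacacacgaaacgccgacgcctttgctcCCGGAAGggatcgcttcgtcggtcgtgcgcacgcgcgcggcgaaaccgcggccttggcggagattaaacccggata
Sf3a3: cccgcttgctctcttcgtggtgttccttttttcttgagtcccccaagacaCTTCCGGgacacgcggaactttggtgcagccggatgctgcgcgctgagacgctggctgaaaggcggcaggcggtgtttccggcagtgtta
Sf3b2: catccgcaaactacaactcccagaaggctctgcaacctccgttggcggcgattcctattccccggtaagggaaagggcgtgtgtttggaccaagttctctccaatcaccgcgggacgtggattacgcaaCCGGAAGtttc
Snrpd2: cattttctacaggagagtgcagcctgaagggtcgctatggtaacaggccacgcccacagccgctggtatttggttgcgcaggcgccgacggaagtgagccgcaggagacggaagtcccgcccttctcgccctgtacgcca
Prpf38b: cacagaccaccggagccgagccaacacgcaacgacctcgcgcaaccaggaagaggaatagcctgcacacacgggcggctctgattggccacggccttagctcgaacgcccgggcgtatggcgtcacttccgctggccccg

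**Figure D2:**
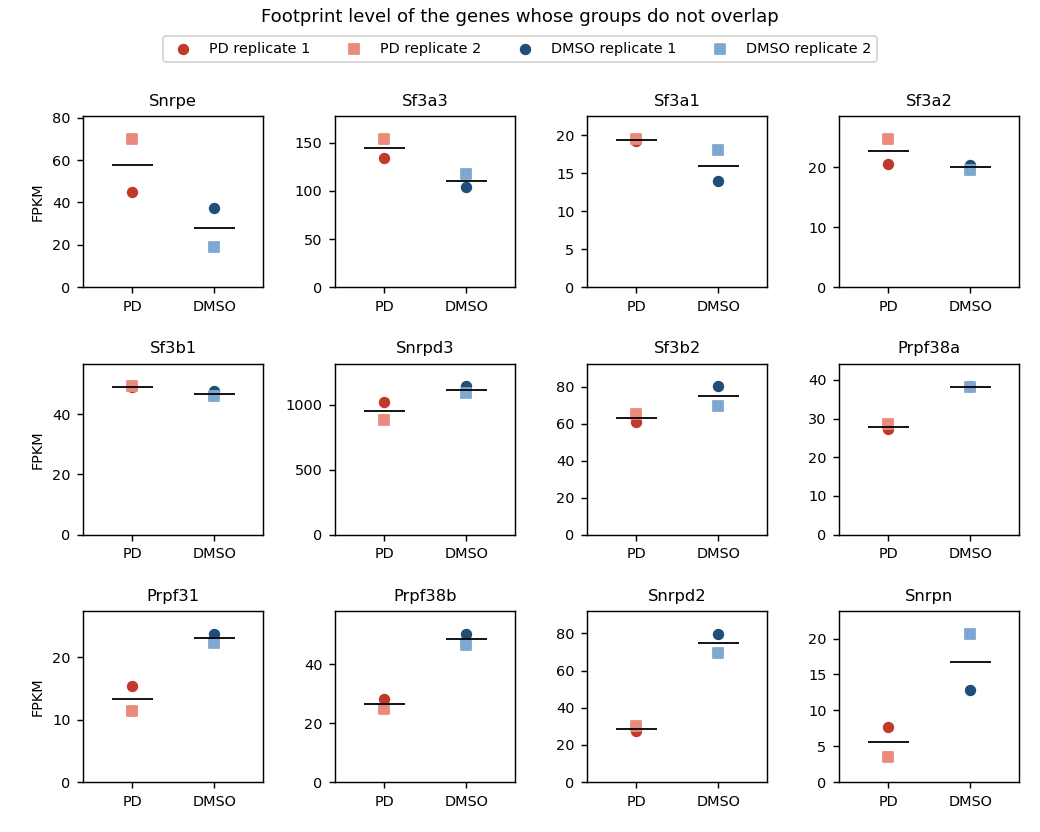
FPKM of the 12 members whose groups did not overlap, 1 panel each, with PD on the left, DMSO on the right, points for libraries (circles replicate 1, squares replicate 2) and bars for group means. The 5 members higher in PD come first and the 7 lower ones follow, ending with Snrpd2 and Snrpn.

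SF3B clamps the branch point helix. Of the 6 Sf3b genes, 1 lay higher and 1 lower in both PD libraries, and 4 overlapped. Sf3b1, the large scaffold subunit and a gene often mutated in blood cancers, had 48.8 and 49.3 FPKM in the PD libraries and 47.5 and 46.0 FPKM in the DMSO libraries. These values did not overlap, but the log2 difference was 0.07 with a 95% interval from -0.55 to 0.69 (limma adjusted p = 0.969). Sf3b2 was on the other side, with 61.2 and 65.1 FPKM in the PD libraries and 80.3 and 69.8 FPKM in the DMSO libraries, a difference on the log2 scale of -0.24 (SE 0.24, limma adjusted p = 0.872). Sf3b3 had 73.4 and 83.0 FPKM in the PD libraries and 63.3 and 79.9 FPKM in the DMSO libraries. The small subunit Sf3b6, which contacts the branch point adenosine, had 44.8 and 46.9 FPKM in the PD libraries and 51.0 and 45.9 FPKM in the DMSO libraries. Both overlapped between groups. The Sf3b3 locus of the table also holds Cog4.

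The 2 remaining Sf3b genes varied most between replicates. Sf3b5 had 65.6 and 46.3 FPKM in the PD libraries and 84.3 and 45.8 FPKM in the DMSO libraries, so the spread within each group was wider than the gap between the means. Sf3b4, whose protein binds the intron before the branch point, had 11.5 and 34.1 FPKM in the PD libraries and 17.96 and 8.72 FPKM in the DMSO libraries. PD replicate 2 was the high library and held 49 recovered reads, beside 38 in PD replicate 1 and 128 and 88 in the DMSO libraries. The log2 difference of Sf3b4 was 0.63 with an SE of 0.65, so it lay within its error. Sf3b4 was also the lowest of the Sf3b genes, with a mean of 18.1 FPKM beside means from 47.1 to 74.9 FPKM for the other Sf3b genes.

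Among the PRPF proteins of the tri-snRNP, Prpf31 alone had groups that did not overlap. Prpf31, which ties the U4/U6 particle to U5 and is mutated in some forms of retinitis pigmentosa, lies on chromosome 7 from 3629985 to 3642484. It had 15.4 and 11.4 FPKM in the PD libraries, against 23.8 and 22.3 FPKM in the DMSO libraries, means of 13.4 ± 2.82 FPKM in PD and 23.1 ± 1.06 FPKM in DMSO (SD, n = 2 each). The log2 difference was -0.76 with an SE of 0.27 and a 95% interval from -1.49 to -0.02 (limma adjusted p = 0.837). Prpf3, a U4/U6 protein, had 27.1 and 13.7 FPKM in the PD libraries and 22.6 and 18.7 FPKM in the DMSO libraries. Its partner Prpf4 had 14.5 and 20.2 FPKM in the PD libraries and 16.8 and 12.6 FPKM in the DMSO libraries. In both genes the PD replicates lay further apart than the group means.

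Of the tri-snRNP PRPF genes, those of the U5 proteins had the highest levels. Prpf8, the scaffold at the catalytic centre, had 56.3 and 44.95 FPKM in the PD libraries and 50.9 and 53.6 FPKM in the DMSO libraries, a log2 difference of -0.05 with a 95% interval from -0.74 to 0.63. Prpf6, which bridges U5 and U4/U6, had 40.6 and 42.1 FPKM in the PD libraries and 25.8 and 43.0 FPKM in the DMSO libraries. DMSO replicate 1 was the low library, and the groups overlapped.

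Prpf38a and Prpf38b, which carry a related domain, were both lower in both PD libraries. Prpf38a enters with the complex that precedes activation of the spliceosome. Prpf38b (chromosome 3, 108902805 to 108911729) had 28.3 and 24.7 FPKM in the PD libraries, against 50.4 and 46.6 FPKM in the DMSO libraries. The means were 26.5 ± 2.6 FPKM in PD and 48.5 ± 2.68 FPKM in DMSO (SD, n = 2 each), and the log2 difference was -0.85 with an SE of 0.24 and a 95% interval from -1.50 to -0.20 (limma adjusted p = 0.803). Prpf38a (chromosome 4, 108564867 to 108579336) had 27.2 and 28.5 FPKM in the PD libraries, against 38.4 and 38.2 FPKM in the DMSO libraries. The replicates of Prpf38a were close in both groups, and its difference on the log2 scale was -0.45 (SE 0.23, limma adjusted p = 0.837). Its reads, 77 and 35 in PD and 234 and 330 in DMSO, gave a depth-scaled ratio of 0.721 with a counting interval from 0.584 to 0.885. The Prpf38a locus overlaps Orc1 in RefSeq, and the sources used here do not say whether counting used strand.

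The other PRPF genes described here overlapped between the groups. Prpf19, the ubiquitin ligase of the complex named after it, had 24.9 and 17.1 FPKM in the PD libraries and 23.8 and 17.5 FPKM in the DMSO libraries. Prpf4b, a kinase of the spliceosome, had 8.3 and 11.6 FPKM in the PD libraries and 11.2 and 11.6 FPKM in the DMSO libraries. Prpf18, a factor of the second catalytic step, had 4.29 and 6.05 FPKM in the PD libraries and 4.81 and 5.34 FPKM in the DMSO libraries. In Prpf19 the libraries numbered 1 were the higher ones in both groups. Prpf40b had 1.9 and 2.56 FPKM in the PD libraries and 0.69 and 2.97 FPKM in the DMSO libraries. Prpf39, a partner of U1, had 3.65 and 3.51 FPKM in the PD libraries and 6.15 and 2.94 FPKM in the DMSO libraries. In Prpf40b and Prpf39 the DMSO replicates enclosed both PD values. The table's locus for Prpf39 runs to 65073938, beyond the RefSeq end at 65063386, and also holds Fkbp3. The Prpf40b locus overlaps Fam186b.

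**Figure D3:**
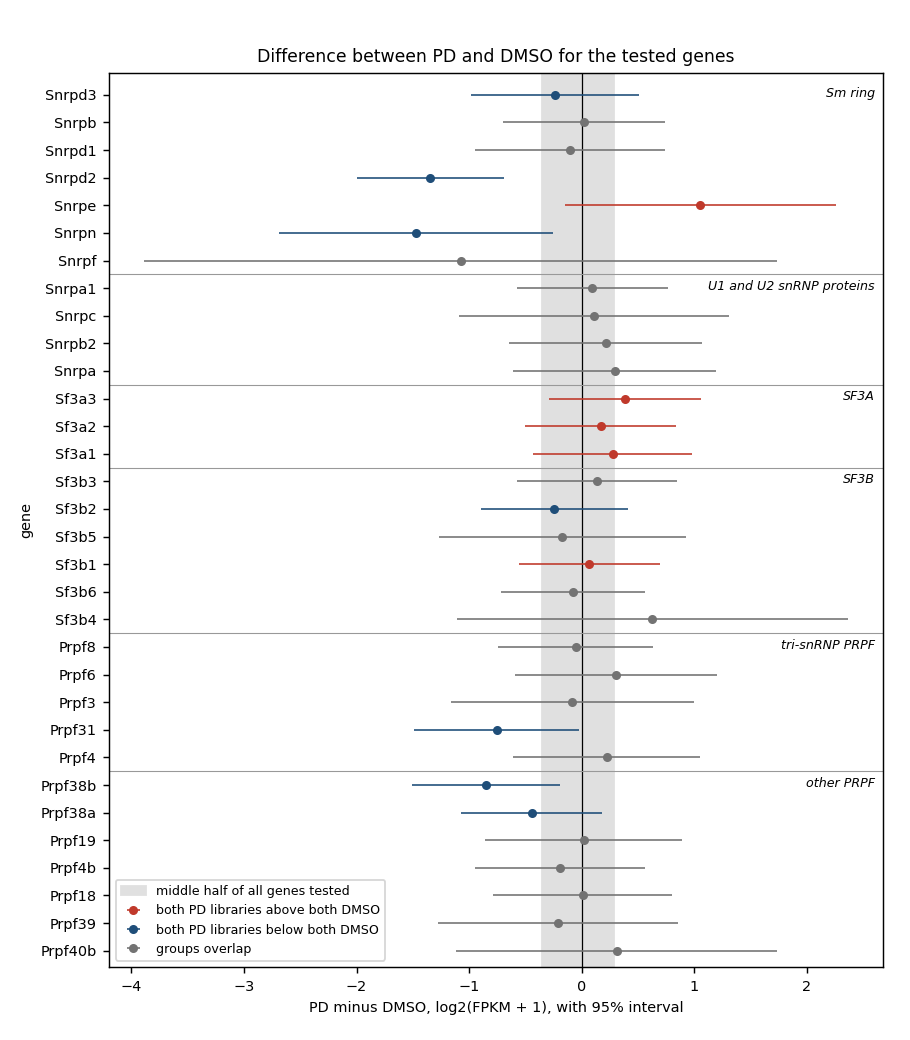
Difference between PD and DMSO on the log2(FPKM + 1) scale for the tested members named here, with 95% intervals from limma; red and blue points are members whose groups do not overlap, grey points overlap, and the grey band runs from the lower to the upper quartile of all genes tested, -0.36 to 0.29. The intervals of Snrpd2, Snrpn, Prpf38b and Prpf31 exclude 0, before any adjustment.

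The other genes of the splicing pathway were taken from 7 lists, and 0 of their tested members passed limma in either direction. Of 20 tested proteins of the major snRNPs with other symbols, 4 lay higher and 2 lower in both PD libraries, and 14 overlapped, with a median log2 difference of 0.09. Snrnp70, the U1-70K protein that binds the U1 RNA, had 98.8 and 79.8 FPKM in the PD libraries, against 145 and 151 FPKM in the DMSO libraries. Its difference on the log2 scale was -0.73 (SE 0.26, limma adjusted p = 0.837). Ddx46, a helicase that acts on the U2 particle, had 14.1 and 17.7 FPKM in the PD libraries, against 21.7 and 24.5 FPKM in the DMSO libraries. The 6 tested LSm proteins, which form the ring of U6, had a median of -0.47, with 1 higher, 1 lower and 4 overlapping. This median leans on Lsm5 and Lsm7, which were near the floor. Lsm5 had 1.55 and 0 FPKM in the PD libraries and 3.60 and 0.51 FPKM in the DMSO libraries. Lsm7 had 1.26 and 0 FPKM in PD and 0.58 and 3.71 FPKM in DMSO. Their log2 differences were -0.72 (SE 0.80) and -0.86 (SE 0.76). The non-overlapping share of this list was 33.3%, near the 35.8% of all genes. Lsm8 had 135 and 158 FPKM in the PD libraries, against 106 and 100 FPKM in the DMSO libraries, and Lsm4 had 71.1 and 65.1 FPKM in the PD libraries, against 117 and 98.6 FPKM in the DMSO libraries.

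Proteins of the minor spliceosome, which removes a rare class of introns, had a median of -0.03 over 10 tested genes, with 1 higher and 2 lower in both PD libraries. Snrnp25, a protein of the U11/U12 particle, had 15.5 and 18.7 FPKM in the PD libraries, against 43.5 and 36.8 FPKM in the DMSO libraries. Its log2 difference of -1.18 with an SE of 0.26 was the largest in size among the non-overlapping genes of these lists (limma adjusted p = 0.717). Scnm1 had 23.6 and 9.6 FPKM in the PD libraries, against 30.7 and 25.4 FPKM in the DMSO libraries.

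The 19 factors of snRNP assembly and import, which load the Sm ring onto the RNA and bring it to the nucleus, had a median of -0.13, with 3 higher, 5 lower and 11 overlapping. Coil, the scaffold of Cajal bodies, had 9.30 and 12.5 FPKM in the PD libraries, against 15.1 and 16.9 FPKM in the DMSO libraries. Gemin2, of the SMN complex, had 13.1 and 9.27 FPKM in the PD libraries, against 16.8 and 13.5 FPKM in the DMSO libraries. The log2 differences were -0.53 for Coil and -0.42 for Gemin2. The 10 factors of the branch point and 3′ splice site had a median of -0.09, with 0 higher and 2 lower, Sf1 and Dnajc8. The 25 factors of the Prpf19 complex and the catalytic steps had a median of -0.000897, with 4 higher and 5 lower. Ppie had 18.9 and 21.7 FPKM in the PD libraries, against 29.3 and 36.5 FPKM in the DMSO libraries, and Ctnnbl1 had 18.8 and 19.5 FPKM in the PD libraries, against 27.2 and 27.3 FPKM in the DMSO libraries. The 12 tested SR proteins, which mark exons for splicing, had a median of -0.15, with 2 higher and 1 lower, Srsf11. Srsf10, 1 of those higher, had 3.13 and 3.81 FPKM in the PD libraries, against 2.22 and 1.08 FPKM in the DMSO libraries. Shares of non-overlapping genes in these lists ran from 20% to 42.1%, beside 35.8% of all genes.

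**Figure D4:**
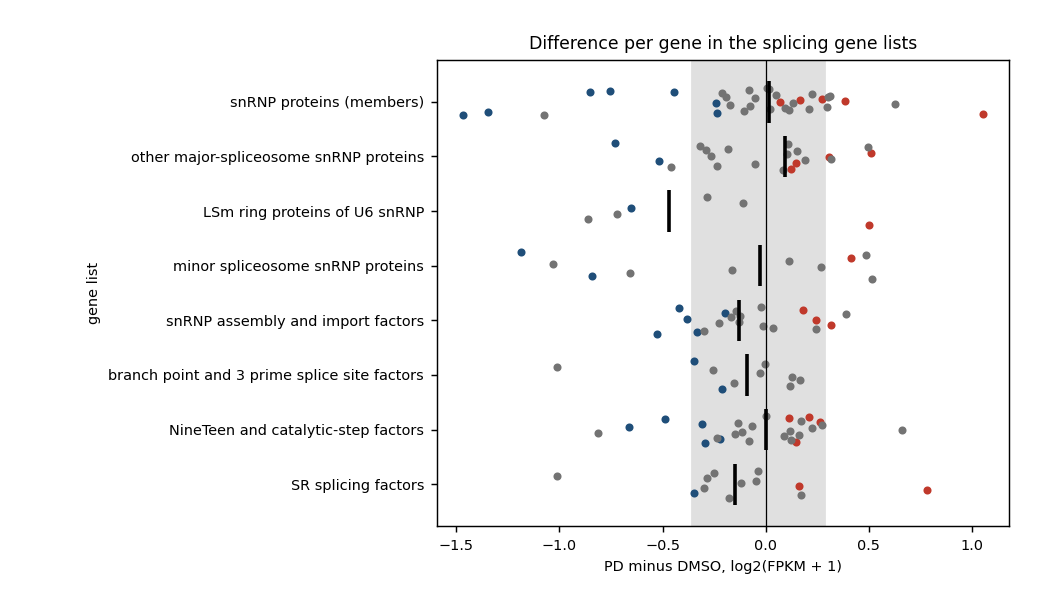
Difference between PD and DMSO on the log2(FPKM + 1) scale for each tested gene of the members and of the 7 other splicing lists, with black bars at the list medians and colours and grey band as in the plot of member differences. The medians lie between -0.47 for the LSm ring, where Lsm5 and Lsm7 are near the floor, and 0.09 for the other major snRNP proteins.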

How the data were processed

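Ribosome footprints of 4 libraries were analysed. Per the file headers, the authors deposited FPKM with confidence bounds and a status per library, as Cufflinks writes them. Per the submitters' processing notes, FastQC, Trimmomatic, Bowtie2, STAR and Cufflinks were used with mm10, and versions, read sharing and strand use are not given in the sources used here. Table starts equal RefSeq starts minus 1 for 14622 genes, so 1 was added. The gene with a failed status was left out.

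FPKM were used as deposited. log2(FPKM + 1) of 9741 genes went into limma 3.58.1 (R 4.3.3) (group term, variance trend, 2 residual degrees of freedom), with Benjamini-Hochberg adjustment and a threshold of 0.05. The scale understates changes of low genes. Whether replicates came from separate cultures is not in the labels, and p-values then reflect library-to-library spread alone, possibly technical. Whole reads were recovered from FPKM steps for 68.2% of 10161 genes above 0 in all libraries, against 3.27% with wrong steps. They are the smallest numbers that fit, so true reads may be a multiple. Members, lists and the promoter motif were chosen with earlier results of these data known. Every member enters the counts, and 1 is not reported here by name. Log2 differences with adjusted p are given for non-overlapping members, and for a few others chosen after their values were seen. Of each list, the 2 largest non-overlapping differences are named, and of the LSm list also Lsm5 and Lsm7 for their low levels.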

Additional observations from a re-analysis of the deposited data

How the results depend on the processing

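With all 4 libraries, no member passed in any setting (limma), with 1 to 5 members at an unadjusted p under 0.05. The 5 came with protein-coding genes only, where 609 of 8897 genes had such a p. The 1 came with voom, where 432 of 6807 genes did. Over all genes, 3 genes higher and 22 lower in PD passed, which became 0 and 0 with protein-coding genes only and 0 and 0 with voom on recovered reads, where fewer genes are tested. Leaving out 1 library gave 0 to 27 higher and 0 to 20 lower genes: 13 and 10 without PD replicate 1, 27 and 20 without PD replicate 2, and 0 and 0 without either DMSO replicate. Members with no overlap numbered 2 higher and 4 lower with voom, which holds 19 members, beside 17.1% higher and 19.5% lower of all its genes. Such members were not recounted with 3 libraries. The median log2 difference of the members, 0.02, was 0.095 with quantile normalization, where the median of all genes was 0.04, and ran from -0.043 to 0.046 without 1 library. The 12 non-overlapping members kept their sign wherever they were fitted, which their choice fixes when a library is left out. With the replicate number as a block, 2 genes higher and 17 lower passed. Same-numbered libraries deviated together with a correlation of 0.0992 over tested genes and 0.203 over protein-coding ones, and the labels state no pairing. Quantile normalization gave Snrpd3 -0.58, beside -0.23 on the log2 scale. Without 1 library the size of the difference also moved by over 1.5 times for Snrpe, Sf3a1 and Sf3a2, as given with those genes, for Snrpd3 (-0.13 without PD replicate 2), for Sf3b2 (-0.14 without DMSO replicate 1) and for Sf3b1 (0.05 without DMSO replicate 2, beside 0.07). Recovered reads in PD were few for Snrpf, Snrpd2 and Snrpe, and 14 members have none recovered.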
